A study of Mus musculus with 4 samples.

Results

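The postsynaptic density is the protein layer under the membrane of excitatory synapses, and 35 genes that encode its scaffolds, adhesion receptors, kinases and phosphatase regulators were followed across 4 brain regions of mice at embryonic day 17.5. The genes were taken by name from a list that was chosen with low synaptic genes of the cerebellum known from earlier results of these data. Of the 35, 34 had a probe set that names them alone on the array, out of 19938 such genes in all, and Magi2 is unnamed here. Of the 34, 33 exceeded the level floor of 8.56, which is the median over all genes and arrays, in 1 region or more and were compared, and Ppp1r1b did not.

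Total RNA came from the superior colliculus, the pontine nucleus, the cerebellum and the olfactory bulb of embryos of the outbred ICR stock, all at the same age and with no treatment named in the labels. The pontine nucleus relays cortical input to the cerebellum, and the superior colliculus receives visual input in the roof of the midbrain. Tissue of 13 mice was combined for the cerebellum, of 14 for the olfactory bulb, of 15 for the pontine nucleus and of 16 for the superior colliculus, and each pool was hybridised to 1 Affymetrix array. With 1 array per region no value has an SD or a p-value, no test was possible, and the region cannot be told apart from the single pool that stands for it. The pieces of tissue were whole dissected regions, so that fewer cells of a type and less RNA per cell cannot be told apart in any value given here.

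At excitatory synapses, Dlg proteins anchor glutamate receptors at the membrane, Dlgap proteins link them to the Shank proteins beneath, and Homer proteins tie Shank to metabotropic glutamate receptors. Calcium entry activates the calcium/calmodulin-dependent kinases, which are concentrated there, and neuroligins span the cleft to presynaptic neurexins. Most synapses of the mouse brain form after birth, so that at this embryonic age the RNA of these genes is measured largely ahead of the mature structure.

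Values are log2 signals as the authors deposited them, and a difference of 1 log2 unit is 2-fold. A region was called higher for a gene if its array exceeded each of the remaining 3 by 1 log2 unit or more, and lower if it fell short of each by as much. Array medians were 8.07 to 8.13. As a measure of background, the levels of 207 genes of vomeronasal receptors and beta defensins had a 95th percentile of 7.32, and their differences from the mean of the remaining arrays had an SD of 0.167. The lowest reading of any measured gene of the group was that of Arc in the pontine nucleus, at 8.14, so none lay in the range of the background genes. Of the regional marker genes, 6 of 6 cerebellar markers, 7 of 7 bulb markers, 5 of 5 pontine markers and 5 of 5 collicular markers were highest on the array of their own region. These lists were chosen with earlier results of these data known, so this is no independent check of the dissections. Levels are compared between regions for 1 probe set at a time and never between genes.

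Across the group, most regional differences were under 1 log2 unit, and they leaned one way. From lowest to highest array the median distance was 0.63, wider than the 0.39 over all compared genes. Because low synaptic genes of the cerebellum were known when the group was chosen, the lean is a description and not an independent finding. The cerebellum was the lowest array for 19 of the 33 compared genes (57.6%), against 30.9% of all 10908 compared genes, and the superior colliculus was the highest array for 15 (45.5%), against 24% of all. The olfactory bulb was highest for 10, against 27.2% of all compared genes, the pontine nucleus for 6, against 28.4%, and the cerebellum for 2, against 17.9%. Those 2 were Shank2 and Baiap2. Lowest in the olfactory bulb were 5 genes, against 17.7% of all, lowest in the pontine nucleus 5, against 26%, and lowest in the superior colliculus 4, against 22.4%. Most of these margins were small. For the 19 genes lowest in the cerebellum the gap to the next array had a median of 0.16 and ran from 0.02 to 0.36, and for 9 of them it exceeded the 0.167 of the background genes. For the 15 highest in the superior colliculus it had a median of 0.14 and ran from 0.05 to 1.07, and 6 exceeded that value. The 0.167 is an SD of differences from a mean in dimmer genes, not of gaps to the next array. It is therefore only a rough yardstick and no bound on noise.

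**Figure D1:**
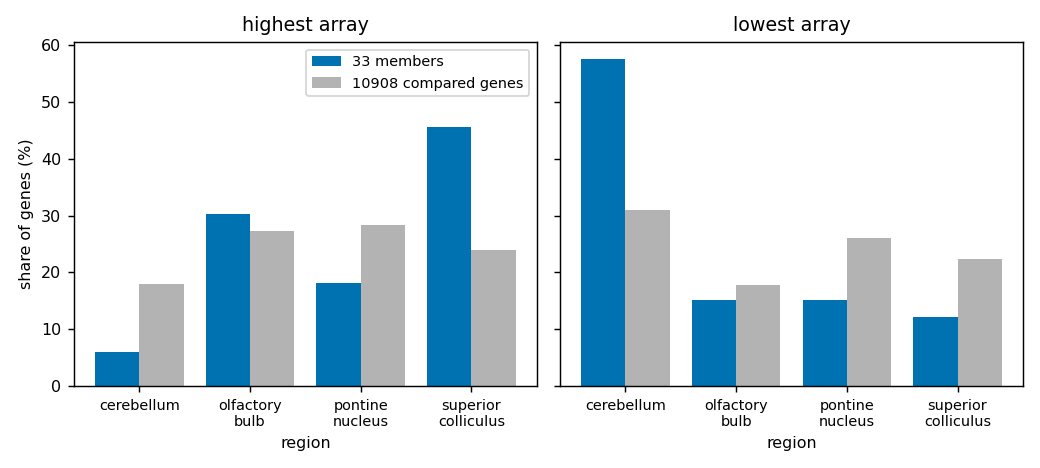
Share of genes, in percent, whose highest (left) or lowest (right) array is each region, for the 33 compared postsynaptic genes (blue bars) and all 10908 compared genes (grey bars), with ties left out. The cerebellum is lowest for 57.6% of the postsynaptic genes and 30.9% of all, and the superior colliculus highest for 45.5% and 24%.

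Taken as differences from the mean of the remaining 3 arrays, the median over the 33 genes was -0.28 in the cerebellum, 0.05 in the bulb, -0.04 in the pontine tissue and 0.21 in the colliculus. Over all compared genes the same medians were -0.06, 0.03, -0.003 and 0. Against the median of the remaining arrays in place of their mean, the bulb stood at 0.19 and the pontine nucleus at -0.13. In the cerebellum 27 of the 33 lay below the mean of the remaining arrays, against 60.4% of all compared genes, and in the superior colliculus 24 lay above it, against 49.7%. Genes of dividing cells and of neurons also differed between these arrays. The cerebellum was highest for all 9 proliferation markers that passed the floor, against 17.9% of all compared genes, and the superior colliculus lowest, against 22.4%. Their levels were 8.71 to 12.04 in the cerebellum, 8.64 to 11.86 in the bulb, 7.77 to 11.25 in the pontine nucleus and 7.44 to 10.93 in the colliculus. Of 11 pan-neuronal markers, 4 were lowest in the cerebellum with no tie, against 30.9% of all compared genes, and 4 in the bulb, against 17.7%. Nefl and Nefm went the other way and were highest in the cerebellum, against 17.9% of all. Nefm, by 1.48, was called higher there, as 0.605% of all compared genes were. The median difference of the 11 was -0.27 in the cerebellum, close to that of the postsynaptic genes. It was -0.02 in the bulb, 0.15 in the pontine tissue and 0.10 in the colliculus. Their levels spanned 10.29 to 13.60 in the cerebellum, 8.45 to 13.60 in the bulb, 9.59 to 13.69 in the pontine nucleus and 9.26 to 13.73 in the colliculus. No marker of either list is listed at 0. Genes of microglia, vessels and meninges were above the mean of the remaining arrays in the bulb for 6 of 6 genes over the floor, against 55.8% of all compared genes. Their median difference there was 0.36, and the 6 read 8.89 to 10.59 in the bulb, against 7.08 to 10.53 in the cerebellum, 7.28 to 10.46 in the pontine nucleus and 8.58 to 10.64 in the colliculus. The part of cell makeup in the regional values was not tested.

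**Figure D2:**
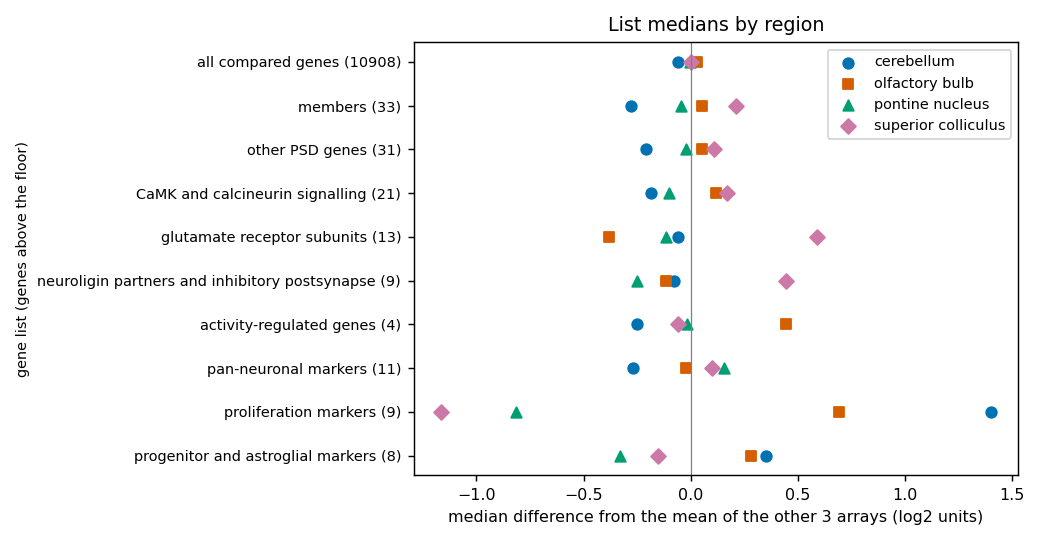
Median difference from the mean of the remaining 3 arrays, in log2 units, for each gene list (rows, with the number of genes above the floor) and region (coloured markers). The postsynaptic genes run from -0.28 in the cerebellum to 0.21 in the colliculus, while the proliferation markers run the opposite way.

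The distance between a gene's highest and lowest array, called its span here, had a median of 0.63 over the 33 genes and 0.39 over all compared genes. Only 13 of the 33 spanned less than 0.5, against 61.4% of all. A span of at least 1 log2 unit was found for 6 genes (18.2%), against 15% of all compared genes, a share near the background. These were Camk2a, Camk4, Nrgn, Nlgn1, Sipa1l1 and Dlgap1, and they did not share a region: 2 were highest in the olfactory bulb, 2 in the pontine tissue and 2 in the superior colliculus. Without the pontine array 3 of the 6 kept such a span, namely Camk2a, Nlgn1 and Sipa1l1, against 10.1% of all compared genes, and without the collicular array Camk2a, Camk4 and Sipa1l1 did, against 11.4%.

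**Figure D3:**
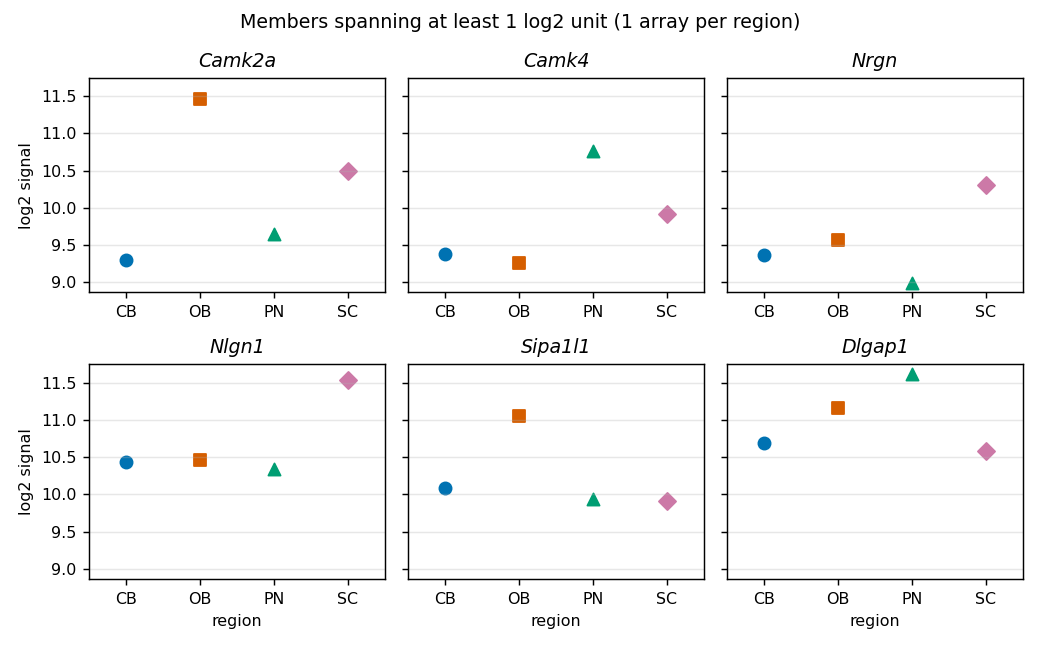
Log2 signal on each of the 4 arrays (CB, cerebellum; OB, olfactory bulb; PN, pontine nucleus; SC, superior colliculus) for the 6 postsynaptic genes with a span of at least 1 log2 unit, 1 point per array. Camk2a and Sipa1l1 peak in the olfactory bulb, Camk4 and Dlgap1 in the pontine nucleus, and Nrgn and Nlgn1 in the superior colliculus.

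Among the 6, Nlgn1 and Nrgn share both their highest array, the superior colliculus, and their lowest, the pontine nucleus, and their promoters are shown for that reason. The sequences are from RefSeq, assembly GRCm38.p6, from 250 bases before to 50 bases after an annotated start, both on the minus strand and written 5′ to 3′ along the gene. For Nlgn1 the more upstream of 2 annotated starts is given, at chr3:26331860-26332159, and for Nrgn the single one, at chr9:37552696-37552995. Capitals mark every match, on either strand, to the E-box CANNTG, the cyclic AMP response element half-site TGACG, the GC box GGGCGG or the TATA box TATAAA.
Nlgn1: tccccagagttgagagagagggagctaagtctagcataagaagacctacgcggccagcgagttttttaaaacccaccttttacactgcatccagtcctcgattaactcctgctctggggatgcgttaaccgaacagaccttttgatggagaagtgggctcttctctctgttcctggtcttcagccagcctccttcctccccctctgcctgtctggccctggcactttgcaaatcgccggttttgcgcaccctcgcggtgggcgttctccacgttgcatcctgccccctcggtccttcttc
Nrgn: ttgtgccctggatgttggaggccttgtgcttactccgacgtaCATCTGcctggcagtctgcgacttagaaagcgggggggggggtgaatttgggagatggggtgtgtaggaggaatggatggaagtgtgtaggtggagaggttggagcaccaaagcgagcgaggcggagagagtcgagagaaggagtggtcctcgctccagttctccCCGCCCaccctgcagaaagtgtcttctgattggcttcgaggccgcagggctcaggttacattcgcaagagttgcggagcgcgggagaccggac
The Nlgn1 window held none of the 4 motifs, and the Nrgn window held 1 E-box and 1 GC box, with no overlap between them. An E-box was present in 72.3% of all 32851 promoter windows of this length, a CRE half-site in 20.8%, a GC box in 35.7% and a TATA box in 13.6%. G and C made up 55.7% of the Nlgn1 window and 59.3% of the Nrgn window, against a median of 52.7% over all windows. The 2 windows thus had no searched motif in common, which says nothing of the factors that bind there.

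The kinases included the widest differences of the group. Camk2a (probe set 10456021) encodes the alpha subunit of CaMKII, the kinase best known for its part in long-term potentiation in forebrain neurons. It read 9.29 in the cerebellum, 11.46 in the bulb, 9.65 in the pontine tissue and 10.50 in the colliculus. The bulb thus stood 0.96 log2 units above the next array, just short of a call, and 4.50-fold above the cerebellum. Camk2a was the only compared gene of the 33 with a span of at least 2 log2 units, against 3.6% of all compared genes.

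The other CaMKII subunits differed less. Camk2b, the beta subunit, which also binds actin, read 11.75 in the cerebellum, 12.34 in the bulb, 12.07 in the pontine tissue and 12.30 in the colliculus. It ranked the regions in the same order as Camk2a, with a span of 0.59. Camk2d, the delta subunit, had another order, with 11.16 in the cerebellum, 11.10 in the bulb, 11.81 in the pontine tissue and 11.55 in the colliculus. Camk2g, the gamma subunit, read 10.76, 11.00, 11.06 and 11.20 in that order of regions, a span of 0.44. The bulb was therefore highest for the alpha and beta subunits, lowest for delta, and above only the cerebellum for gamma.

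Camk4 encodes a kinase that acts largely in the nucleus, where it phosphorylates the transcription factor CREB. It read 9.38 in the cerebellum, 9.26 in the bulb, 10.76 in the pontine tissue and 9.92 in the colliculus. The pontine level was 2.83-fold above the bulb and 0.84 log2 units above the next array, the reverse of Camk2a between those 2 regions. Measured against the mean of the remaining 3 arrays, Camk2a and Camk4 differed by at least 1 log2 unit in the bulb and in the pontine nucleus respectively, as 2.34% and 1.65% of all compared genes did in those directions, and Sipa1l1 did so in the bulb too. Camk2a was also at least 1 log2 unit below that mean in the cerebellum, as were 0.917% of all.

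Nrgn (neurogranin) encodes a small protein that holds calmodulin near the membrane at low calcium. It read 9.36 in the cerebellum, 9.56 in the bulb, 8.99 in the pontine tissue and 10.30 in the colliculus. The colliculus stood 0.74 above the next array and 2.48-fold above the pontine nucleus. Of 21 further genes of CaMK and calcineurin signalling above the floor, 4 spanned at least 1 log2 unit, against 15% of all compared genes. Camk1d, a relative of the kinases, read 9.11, 10.25, 8.15 and 9.63 in the cerebellum, bulb, pontine nucleus and colliculus. Camk1g read 9.43, 10.13, 9.45 and 10.76, and the calmodulin-binding protein gene Pcp4 read 12.08, 11.11, 10.30 and 12.01. Camk2n1, which encodes an inhibitor of CaMKII, read 11.25, 11.54, 10.05 and 11.28 and was called lower in the pontine nucleus, as 0.981% of all compared genes were. Camk1d, Pcp4 and Camk2n1 were lowest in the pontine nucleus, as Nrgn was, and Camk1g was lowest in the cerebellum. These 4 are the widest of the list. Of all 21, 7 were lowest in the pontine nucleus, against 26% of all compared genes, and 9 in the cerebellum, against 30.9%. Calmodulin itself varied little, with spans of 0.20 for Calm2 and 0.18 for Calm3.

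Among the membrane-associated guanylate kinases, 3 of 4 followed one order of regions. Dlg4, which encodes PSD-95, the main scaffold of mature excitatory synapses, read 11.82 in the cerebellum, 12.39 in the bulb, 12.13 in the pontine tissue and 12.45 in the colliculus. Dlg2, its close relative, read 10.69, 11.04, 10.71 and 11.15 in the same order of regions. Dlg3, which encodes SAP102, prominent at young synapses, read 9.29, 9.78, 9.53 and 9.86. In all 3 the colliculus was highest and the bulb second, by at most 0.11, and the cerebellum was lowest. For Dlg2 the cerebellum was lowest by only 0.02, and with quantile normalization the pontine nucleus was lowest instead. Dlg1, which encodes SAP97, departed from this order, with 10.16 in the cerebellum, 10.54 in the bulb, 10.02 in the pontine tissue and 9.91 in the colliculus. The colliculus was thus highest for Dlg2, Dlg3 and Dlg4 and lowest for Dlg1, and no span of the family exceeded 0.63.

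The Dlgap genes encode the adaptors between Dlg and Shank proteins, and each had its own order. Dlgap1 (probe set 10446592) read 10.69 in the cerebellum, 11.16 in the bulb, 11.62 in the pontine tissue and 10.58 in the colliculus. Its pontine level was 2.06-fold above the colliculus. Its other probe set also peaked in the pontine nucleus, at 11.11, with 9.76 in the cerebellum, 10.58 in the bulb and 10.00 in the colliculus, so that the lowest region depended on the probe set and the highest did not. Dlgap2 had the bulb and the colliculus together on top, at 9.28 and 9.26, over 8.51 in the cerebellum and 8.31 for the pontine nucleus. The pontine nucleus was thus highest for Dlgap1 and lowest for Dlgap2. Dlgap3 read 10.34, 9.93, 9.98 and 10.39 in the cerebellum, bulb, pontine nucleus and colliculus. Dlgap4 was nearly even, at 10.92, 11.08, 11.14 and 11.05, the smallest span of the compared genes at 0.22.

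Shank proteins form the deeper layer of the density. Shank1 read 10.41 in the cerebellum, 10.72 in the bulb, 11.06 in the pontine tissue and 11.13 in the colliculus, and Shank3, the family member tied to Phelan-McDermid syndrome in humans, kept the same order at 9.21, 9.37, 9.49 and 9.64. Shank2 went the other way on its brightest probe set, 10559341, at 10.49 in the cerebellum, 9.58 in the bulb, 10.08 in the pontine tissue and 9.65 in the colliculus. A second probe set, 10559333, gave the same order, at 9.37, 8.38, 9.09 and 8.58. The third, 10559343, did not, with 9.48 in the cerebellum, 9.50 in the bulb, 9.65 in the pontine tissue and 10.10 in the colliculus. On 2 of its 3 probe sets Shank2 was therefore highest in the cerebellum, and on the other it was lowest there. Which part of the gene each probe set covers is not given in the sources used here.

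**Figure D4:**
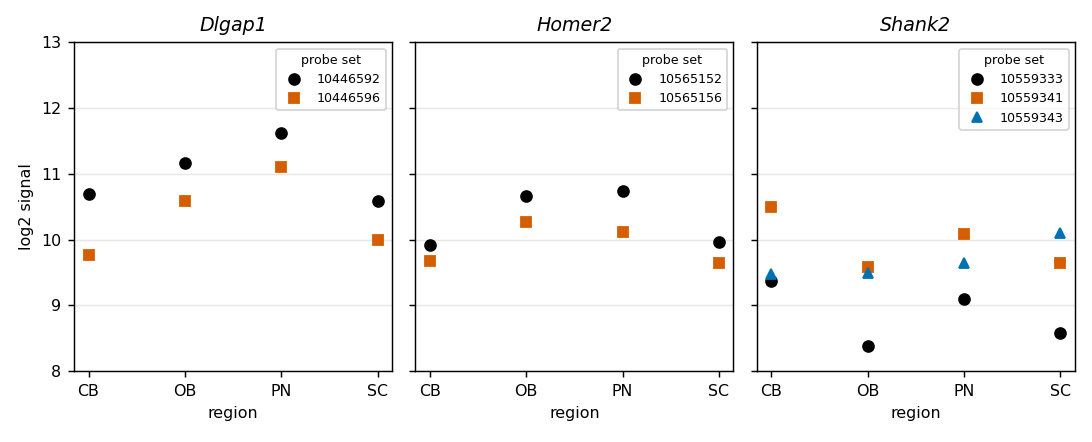
Log2 signal by region for every probe set of the 3 postsynaptic genes that have several, 1 point per array (CB, cerebellum; OB, olfactory bulb; PN, pontine nucleus; SC, superior colliculus). Both Dlgap1 probe sets peak in the pontine nucleus, while Shank2 probe set 10559343 is highest in the superior colliculus and the other 2 in the cerebellum.

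Homer genes encode the adaptors that join Shank to metabotropic glutamate receptors. Homer1, whose short form is induced by activity, read 9.60 in the cerebellum, 9.84 in the bulb, 9.99 in the pontine tissue and 9.77 in the colliculus. Homer2 split the regions into pairs, with 10.67 in the bulb and 10.74 in the pontine nucleus over 9.92 in the cerebellum and 9.97 in the colliculus. Its other probe set made the same split, at 10.27 and 10.11 over 9.68 and 9.64. Homer3, known from Purkinje cells, read 9.48, 9.53, 9.21 and 9.09 in the cerebellum, bulb, pontine nucleus and colliculus. The cerebellum was thus lowest for Homer1, lowest for Homer2 on its brighter probe set, and second for Homer3, whose span was 0.44.

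Neuroligins are postsynaptic adhesion proteins that bind neurexins, with Nlgn1 found mainly at excitatory synapses, Nlgn2 at inhibitory ones and Nlgn3 at both. Nlgn1 (probe set 10497505) was the only compared gene of the 33 that passed the size rule, in the superior colliculus, where 0.715% of all compared genes were called higher and 0.165% lower. The shares of all compared genes called higher and lower were 0.605% and 0.156% in the cerebellum, 0.972% and 0.431% in the bulb, and 0.798% and 0.981% in the pontine nucleus, and 0 of the 33 were called there. It read 10.43 in the cerebellum, 10.47 in the bulb, 10.34 in the pontine tissue and 11.54 in the colliculus. The other 3 arrays lay close together, and the colliculus stood 1.07 log2 units, or 2.10-fold, above the highest of them. This is just inside the rule, and Sipa1l1 at 0.97 and Camk2a at 0.96 lie just outside it. Nlgn2 and Nlgn3 were also highest in the colliculus, by smaller margins. Nlgn2 read 11.29, 11.51, 11.55 and 11.66 in the cerebellum, bulb, pontine nucleus and colliculus, and Nlgn3 read 11.81, 11.97, 11.97 and 12.18. All 3 neuroligins were thus highest in the colliculus, and the margins were 0.11 for Nlgn2 and 0.21 for Nlgn3.

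Of 9 genes of neuroligin partners, related adhesion proteins and the inhibitory postsynapse above the floor, 6 spanned at least 1 log2 unit, against 15% of all compared genes. In the colliculus 8 lay above the mean of the remaining arrays, against 49.7%. In the cerebellum 1 was lowest, against 30.9% of all, and the median difference was -0.08. Lrrtm3, a leucine-rich repeat protein gene that also encodes a neurexin partner, read 10.57 in the cerebellum, 9.87 in the bulb, 9.24 in the pontine tissue and 11.60 in the colliculus. It was called higher in the colliculus, as 0.715% of all compared genes were. Nrxn3, a neurexin gene, read 11.62, 11.97, 10.08 and 11.52 and was called lower in the pontine nucleus, as 0.981% of all compared genes were. Mdga1 and Mdga2 encode proteins that block neuroligin from binding neurexin. Mdga2 read 10.92, 10.79, 12.61 and 11.75 in the cerebellum, bulb, pontine nucleus and colliculus, and Mdga1 read 11.42, 12.02, 12.65 and 11.07. Both Mdga genes were highest in the pontine nucleus. Nrxn3 was lowest there, by 1.44, and Nlgn1 by only 0.09. The other neuroligins and Nrxn2 were not: Nlgn2 and Nrxn2 were second highest in the pontine nucleus, and Nlgn3 was level with the bulb. A relation between these genes was not tested.

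Of the regulators of the spine cytoskeleton, Sipa1l1 differed most. It encodes SPAR, a GTPase-activating protein for Rap that binds PSD-95. It read 10.08 in the cerebellum, 11.05 in the bulb, 9.94 in the pontine tissue and 9.91 in the colliculus. The bulb stood 0.97 above the other 3, which lay close together, and was 2.20-fold above the colliculus. Baiap2, which encodes IRSp53, a protein that bends membrane and binds actin regulators, instead set the cerebellum and the bulb, at 9.67 and 9.50, above the pontine nucleus and the colliculus, at 8.85 and 8.88. The proliferation markers were highest in the same 2 regions, and their part in the Baiap2 values was not tested. Kalrn, which encodes kalirin, a protein of dendritic spines, read 10.36, 10.47, 10.69 and 10.99 in the cerebellum, bulb, pontine nucleus and colliculus. Iqsec1 and Iqsec2 encode exchange factors for the small GTPase Arf6. Iqsec1 read 10.39, 10.08, 10.21 and 10.69, with the bulb lowest, and Iqsec2 read 8.70, 9.33, 9.03 and 9.19, with the bulb highest.

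Genes that steer protein phosphatase 1 had spans below 0.63, the median of the group, against a median of 0.39 over all compared genes. Ppp1r9b (spinophilin) read 11.12 in the cerebellum, 11.45 in the bulb, 11.26 in the pontine tissue and 11.31 in the colliculus, and Ppp1r9a (neurabin) read 9.40, 9.47, 9.60 and 9.86. Both were lowest in the cerebellum, with spans of 0.33 and 0.46. Ppp1r1b encodes DARPP-32, an inhibitor of the phosphatase known from striatal neurons that receive dopamine. It read 8.23, 8.38, 8.31 and 8.18, below the floor on every array, with a span of 0.20. Of 5 measured markers of striatal neurons 4 passed the floor, against 10908 of all 19938 named genes. Of these, Drd2, a dopamine receptor gene, read 9.74, 9.32, 8.82 and 10.43. The adaptors of AMPA receptor traffic also spanned less than the group's median, by 0.44 for Grip1 and 0.29 for Pick1 from lowest to highest array. Grip1 read 10.20, 10.64, 10.31 and 10.44, and Pick1 read 10.07, 10.18, 10.24 and 10.36.

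Arc, an activity-induced gene whose product promotes removal of AMPA receptors from synapses, read 8.44 in the cerebellum, 8.81 in the bulb, 8.14 in the pontine tissue and 8.42 in the colliculus. It passed the floor only through the bulb. Of 10 other activity-regulated genes, 4 passed the floor, against 10908 of all 19938 named genes. The early genes Fos, Fosb, Junb, Egr2 and Ier2, together with Npas4, did not. Egr1, an activity-induced transcription factor gene, was highest in the bulb as well, at 8.77 against 8.05 in the cerebellum, 8.12 in the pontine tissue and 8.24 in the colliculus. Like Arc, it passed the floor only through the bulb. Nr4a1 read 8.46, 9.07, 9.09 and 8.87, and Btg2 read 9.76, 9.77, 8.68 and 9.00 in the cerebellum, bulb, pontine nucleus and colliculus. Of these genes only Btg2 spanned at least 1 log2 unit, against 15% of all compared genes.

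**Figure D5:**
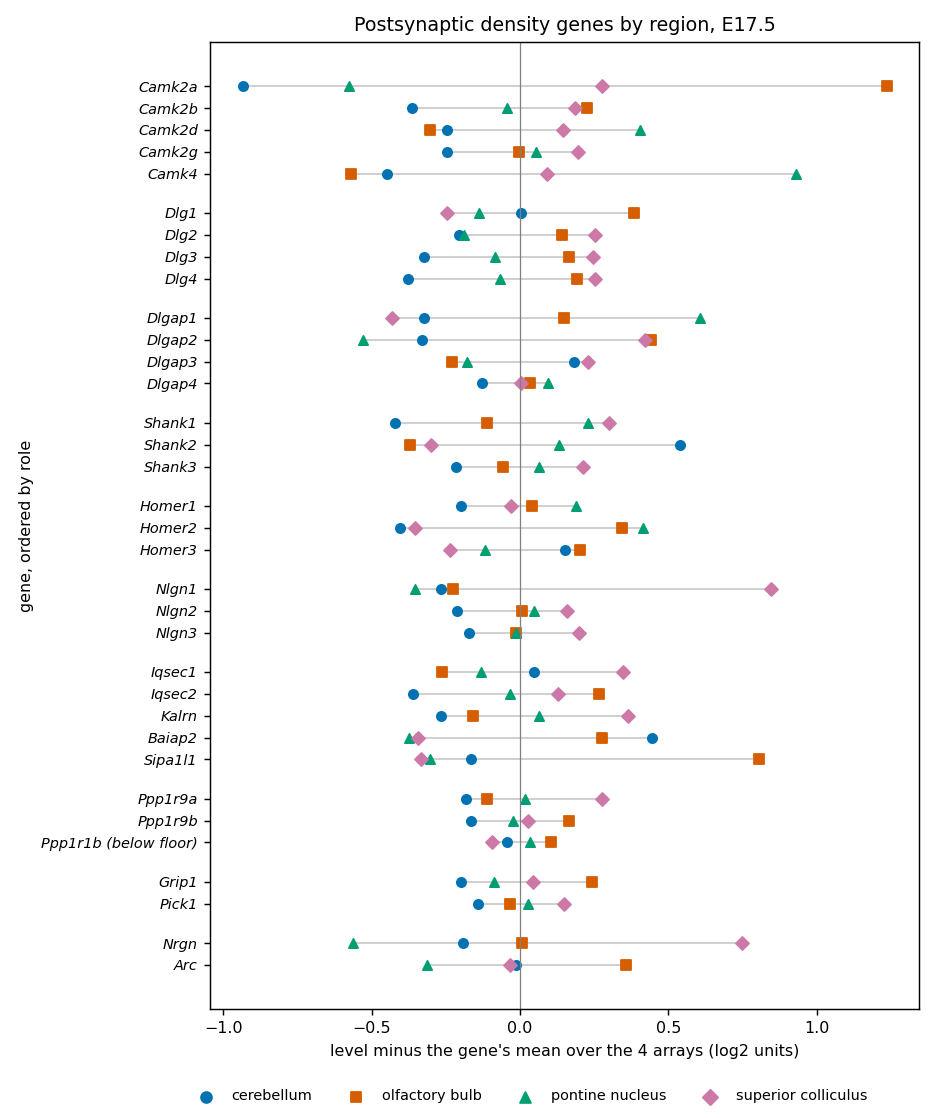
Level of each measured postsynaptic gene on each array, as the difference in log2 units from the gene's own mean over the 4 arrays, ordered by role, with 1 marker per array. The cerebellum (blue circles) is leftmost for 19 of the 33 compared genes, and Camk2a, Camk4, Nrgn and Nlgn1 have the widest spread.

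Pairs of regions were set against each other with a difference of at least 1 log2 unit. Between the cerebellum and the olfactory bulb only Camk2a among the 33 differed so far (3.03%), against 4.52% of all compared genes. Between the cerebellum and the pontine nucleus only Camk4 did, against 6.37%. Between the cerebellum and the colliculus Camk2a and Nlgn1 did, both higher in the colliculus, against 5.71% of all. The bulb and the pontine nucleus differed for Camk2a, Sipa1l1 and Camk4, against 7.76%, the bulb and the colliculus for Sipa1l1 and Nlgn1, against 5.67%, and the pontine nucleus and the colliculus for Dlgap1, Nlgn1 and Nrgn, against 5.84%. In no pair did a gene of the group read at least 1 log2 unit higher in the cerebellum than in another region, against 2.06% of all compared genes relative to the bulb, 4.49% relative to the pontine nucleus and 3.08% relative to the colliculus. These pairs share arrays, so their counts are not independent of each other.

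Further genes of the postsynaptic density had a similar lean in the cerebellum and a weaker one in the colliculus. This list too was chosen with low synaptic genes of the cerebellum known, so it is no independent support for that of the group. Of 31 above the floor, 17 were lowest in the cerebellum, against 30.9% of all compared genes, with a median difference of -0.21. In the colliculus 24 lay above the mean of the remaining arrays, against 49.7%, with a median of 0.11. The highest array was the colliculus for 11 and the pontine nucleus for 11, against 24% and 28.4% of all. A span of at least 1 log2 unit was found for 10, against 15% of all compared genes. The widest spans belonged to the Ras exchange factor genes. Rasgrf1 read 7.63 in the cerebellum, 10.29 in the bulb, 10.14 in the pontine tissue and 8.56 in the colliculus. Rasgrf2 read 7.40, 8.17, 7.70 and 9.95, and was the only gene of this list called higher in a region, as 0.715% of all compared genes were in the colliculus. It passed the floor only through that array. The paralogs were thus high in different places, Rasgrf1 in the bulb and the pontine nucleus and Rasgrf2 in the colliculus. Iqsec3, a relative of Iqsec1 and Iqsec2 found at inhibitory synapses, read 9.76, 10.70, 8.90 and 10.80 in the cerebellum, bulb, pontine nucleus and colliculus. Camkv, which encodes a kinase-like protein without activity, read 8.85, 10.49, 9.51 and 10.63. Both were highest in the colliculus and second in the bulb, as Dlg2, Dlg3 and Dlg4 were.

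Glutamate receptor subunit genes, whose products the scaffolds anchor, had wide spans. Of 13 above the floor, 9 spanned at least 1 log2 unit, against 15% of all compared genes, with a median span of 1.54, against 0.63 for the scaffold and kinase group. In the cerebellum 2 of the 13 were lowest, against 30.9% of all compared genes, and their median difference was -0.06, the same as over all compared genes. In the colliculus 12 of the 13 lay above the mean of the remaining arrays, against 49.7% of all compared genes, with a median difference of 0.59. Grin2a and Grin2d, which encode NMDA receptor subunits, were called higher there, as was Grin3a, against 0.715% of all compared genes. Grin2a read 8.12 in the cerebellum, 8.13 in the bulb, 7.21 in the pontine tissue and 9.36 in the colliculus, of which the pontine value lies in the range of the background genes. It passed the floor only through the colliculus, the region of its call. Grin2d read 9.41, 8.97, 8.49 and 10.62 in the same order. Gria1, an AMPA receptor subunit gene, was called lower in the pontine nucleus, at 9.24 against 10.94 in the cerebellum, 11.79 in the bulb and 11.69 in the colliculus. Grik3, a kainate receptor subunit gene, was called higher there, at 12.91 against 11.79, 11.59 and 11.21. Of all compared genes, 0.981% were called lower in the pontine nucleus and 0.798% higher. In the olfactory bulb only 2 of the 13 lay above the mean of the remaining arrays, against 55.8% of all compared genes, with a median of -0.38, while the scaffold and kinase group stood at 0.05.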

How the data were processed

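Trizol and RNeasy columns served for RNA isolation, and sense-strand cDNA was made and labelled with kits of Ambion and Affymetrix, per the labels' protocols. The authors used Affymetrix Expression Console, per the submitters' processing notes. The algorithm, its version, the normalization and the build are not stated there or in the table. The deposited table holds 1 log2 value per probe set and array. The log2 scale was inferred from the values, 2.43 to 14.57. Near-equal array medians can hide a general shift between regions, and dim signals compress differences.

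Of 35556 probe sets, 21789 had 1 symbol in the 2016 platform annotation, 1621 had several, and the 12146 that the annotation does not list are unnamed here. The highest-mean probe set stood for a gene. All 34 measured genes matched RefSeq (GRCm38.p6) by Entrez ID with 0 symbols changed, and 25 had a promoter entry. Genes were compared above the 50th percentile of all levels. The members, gene lists and size rule were chosen with earlier results of these data known, among them the low synaptic genes of the cerebellum. All members were named, and of each other list up to 4 genes by span. Calm2, Calm3, Grin3a, Nrxn2 and the early genes were named beside these after their values were seen, as partners or contrasts. Simulated data with known shifts were used to check the rule. Alternatives were other floors, quantile normalization, the mean of probe sets, probe sets naming several genes, 2 log2 units and another comparator. Leaving out each array, and each probe set on its own, were chosen after seeing the data. Software was Python 3.11.15, Matplotlib 3.10.9, pandas 2.3.3 and NumPy 2.4.6.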

Additional observations from a re-analysis of the deposited data

How the results depend on the processing

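The number of arrays limits every value, and no alternative measures the variation between animals or dissections. The medians by region, which were not recomputed for the rule of 2 log2 units or for left-out arrays, kept their sign under the other alternatives. They lay between -0.28 and -0.23 in the cerebellum and between 0.20 and 0.23 in the colliculus. Those of the bulb and the pontine nucleus were near 0 and moved more, from 0.01 with the floor at the 75th percentile to 0.19 against the median of the remaining arrays in the bulb, and from -0.03 to -0.13 under the same alternatives in the pontine nucleus. With a rule of 2 log2 units, the calls became 0 for the colliculus, against 0.138% of all compared genes called higher there. A span that wide was kept by 1 gene, against 3.6%. Between the cerebellum and the bulb 1 gene differed, against 1.04%, and in every other pair 0 did, against 0.816% to 1.9%. These changes follow from the stricter rule. Against the mean of the remaining arrays, 1 gene was called lower in the cerebellum, against 0.917% of all compared genes. In the bulb 2 were called higher, against 2.34%, and in the pontine nucleus 1 was, against 1.65%. Calls are more frequent here since a mean lies inside the extremes. With the floor at the 75th percentile, which left 24 genes, 1 was highest in the cerebellum, against 15% of all compared genes. In the bulb 6 were highest, against 27.3%, and in the pontine nucleus 2 were lowest, against 23.5%. With the mean of the probe sets, 2 genes, Camk4 and Dlgap1, differed between the cerebellum and the pontine nucleus, against 6.4% of all compared genes. The span of Shank2 was then 0.63 in place of 0.91. Leaving out each array in turn, 3 to 6 genes kept a span of at least 1 log2 unit, against 10.1% to 11.7% of all compared genes. With quantile normalization, Dlg2 became lowest in the pontine nucleus, Dlgap2 highest in the colliculus and Dlgap3 highest in the cerebellum. Allowing probe sets that name several genes added none for these genes. No paired analysis was possible because each region has 1 array.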
